A study of Homo sapiens with 16 samples.

Results

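Whether knockdown of the Mediator kinase CDK8 alters the transcriptional response to low oxygen was measured in HCT116, an epithelial colorectal carcinoma cell line, by comparing hypoxia responses between cell lines. The contrast was (shCDK8 hypoxia minus shCDK8 normoxia) minus (shNT hypoxia minus shNT normoxia), and it used every polyA RNA sequencing library of the shCDK8 and shNT cells, 8 of the 16 in the series. The groups were HCT116 cells with a stable shRNA against CDK8 after 24 h at 1% oxygen, the same cells at 21% oxygen, HCT116 cells with a stable non-targeting shRNA (shNT) after 24 h at 1% oxygen, and shNT cells at 21% oxygen, with 2 libraries in each. All 4 groups were grown in the same serum-supplemented medium and none carries the HIF1A deletion of another line in the series. The labels describe each group's pair of libraries as independent biological replicates, and they do not say how many hairpins, infections or clones stand behind a line, so CDK8 loss and any other effect of its hairpin cannot be told apart.

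CDK8 is the kinase of a dissociable Mediator module that also holds cyclin C, MED12 and MED13, with CDK19 as a paralog of the kinase. Mediator links DNA-bound transcription factors to RNA polymerase II. In hypoxia the alpha subunits HIF-1α (gene HIF1A) and HIF-2α (gene EPAS1) escape prolyl hydroxylation, pair with ARNT and bind the core motif ACGTG at genes of glycolysis, angiogenesis and pH control, and CDK8 has been described as a coactivator that helps polymerase to elongate at such genes.

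A positive response difference means a response that was more positive, or less negative, in shCDK8 than in shNT cells. A library response is the log2 CPM of a hypoxic library minus that of a normoxic library of the same line. The 4 library responses of a line share its libraries, so they are not independent replicates. Values are CPM, read counts scaled to a common library size with TMM composition factors, and within each group the library with the lower number in the count table is given first. Between 26620086 and 38377063 reads were counted per library, so 3 counts, the floor used here, corresponded to 0.0716 to 0.108 CPM (counting error only). Log2 CPM of the paired libraries correlated across genes at r = 0.988 to 0.993. In hypoxic libraries 5.87 to 7.35% of counts fell on the top 10 genes, and in normoxic libraries 3.5 to 3.83%. Epithelial markers were present in all 8 libraries, with EPCAM at 148 to 215 CPM and KRT8 at 1372 to 3826 CPM. Of 18 blood and endothelial markers, 15 stayed under 1 CPM and 4 had no count at all. Their summed level, led by CD68, was 66.0 to 84.8 CPM in shCDK8 hypoxia, 22.0 to 24.1 in shCDK8 normoxia, 41.7 to 43.2 in shNT hypoxia and 9.02 to 11.1 in shNT normoxia. The 22 fibroblast and mesenchymal markers, led by S100A4 with 12 under 1 CPM, summed to 663 to 740 CPM in shCDK8 hypoxia, 660 to 670 in shCDK8 normoxia, 877 to 981 in shNT hypoxia and 695 to 918 in shNT normoxia. The part of these markers in the results was not tested.

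The targeted gene followed its label at both oxygen levels. CDK8 was counted at 5.84 and 5.45 CPM in shCDK8 hypoxia and 5.77 and 6.80 CPM in shCDK8 normoxia, against 27.9 and 28.3 CPM in shNT hypoxia and 27.3 and 24.8 CPM in shNT normoxia. All 4 shCDK8 libraries lay below all 4 shNT libraries, and the level in shNT was 4.98-fold that of shCDK8 in hypoxia and 4.13-fold in normoxia (edgeR adjusted p = 1.77e-08 and 8.32e-08). Its response difference was -0.27 ± 0.20 log2 (SE; 95% interval -0.69 to 0.15; edgeR adjusted p = 0.643). CDK19, the paralog, averaged 42.4 CPM in shCDK8 hypoxia and 22.4 in shCDK8 normoxia, against 44.3 in shNT hypoxia and 19.5 in shNT normoxia, and rose with hypoxia in each line.

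The response difference passed the threshold for 6 of 15520 genes tested: 5 with a lower response in shCDK8 (0.0322% of genes tested) and 1 with a higher one (0.00644%), 0.0387% in all. The lower responses were those of DUSP1, HPCAL1, HOXA4, TNFRSF10D and ANGPTL4, and the higher one was that of the transferrin receptor TFRC. DUSP1, HPCAL1, TNFRSF10D and ANGPTL4 rose with hypoxia in both lines and rose less in shCDK8, whereas HOXA4 and TFRC had fitted changes of opposite sign in the 2 lines. The test was edgeR's two-sided quasi-likelihood test with Benjamini-Hochberg adjustment at 0.05. The count depends on the model. DESeq2 on the same genes called 124 lower (0.968% of its 12812 genes with an adjusted p) and 101 higher (0.788%), including all 6. With the library number series as a block, edgeR called 202 lower (1.3%) and 330 higher (2.13%), again including all 6. At an unadjusted p under 0.05, edgeR gave 767 genes lower (4.94%) and 928 higher (5.98%).

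DUSP1 encodes a phosphatase that inactivates MAP kinases and is itself an immediate early gene. It was counted at 17.8 and 19.3 CPM in shCDK8 hypoxia and 13.1 and 10.5 CPM in shCDK8 normoxia, against 50.6 and 66.3 CPM in shNT hypoxia and 8.01 and 7.83 CPM in shNT normoxia. The hypoxic shNT libraries stood clear of the other 6, and the 2 lines did not overlap at either oxygen level. In hypoxia shNT was 3.15-fold higher, and in normoxia shCDK8 was 1.48-fold higher (edgeR adjusted p = 4.63e-06 and 0.0415), and both gaps entered the response difference. Hypoxia raised DUSP1 1.58-fold in shCDK8 and 7.38-fold in shNT, a response difference of -2.23 ± 0.24 log2 (SE; 95% interval -2.74 to -1.71; edgeR adjusted p = 0.00147). DUSP1 lies on the reverse strand of chr5:172195099-172198198 (GRCh37) and has 4 exons in its canonical transcript. It was called under all 17 alternatives, with each of the 8 libraries left out included.

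HPCAL1 encodes hippocalcin-like protein 1, a neuronal calcium sensor. It had 163 and 182 CPM in shCDK8 hypoxia and 121 and 119 CPM in shCDK8 normoxia, against 450 and 422 CPM in shNT hypoxia and 119 and 122 CPM in shNT normoxia. The 2 lines overlapped in normoxia and separated in hypoxia, where shNT was 2.53-fold higher. Hypoxia raised it 1.44-fold in shCDK8 and 3.61-fold in shNT (difference -1.33 ± 0.18 log2, SE; edgeR adjusted p = 0.00762). The call was kept with 6 of 8 libraries left out in turn, and the gene spans chr2:10443015-10567743 (GRCh37, forward strand).

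ANGPTL4 encodes a secreted inhibitor of lipoprotein lipase and a HIF target. It was counted at 659 and 783 CPM in shCDK8 hypoxia and 17.0 and 14.3 CPM in shCDK8 normoxia, against 1510 and 1031 CPM in shNT hypoxia and 8.56 and 8.41 CPM in shNT normoxia. Without overlap, shCDK8 was lower in hypoxia and higher in normoxia, by 1.76-fold and 1.84-fold, and both steps entered the response difference. Hypoxia raised ANGPTL4 46.2-fold in shCDK8 and 150-fold in shNT (difference -1.70 ± 0.28 log2, SE; edgeR adjusted p = 0.0487). The call sat just inside the threshold and was kept with 1 of 8 libraries left out in turn, with adjusted p up to 0.254. The gene spans chr19:8428173-8439254 (GRCh37, forward strand).

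TNFRSF10D encodes a decoy receptor for the death ligand TRAIL that lacks a functional death domain, and is a p53 target. It had 178 and 245 CPM in shCDK8 hypoxia and 120 and 128 CPM in shCDK8 normoxia, against 270 and 347 CPM in shNT hypoxia and 55.3 and 60.9 CPM in shNT normoxia. Its level was lower in shCDK8 in hypoxia and 2.13-fold higher in shCDK8 in normoxia, so the normoxic gap carried the larger share of the difference of -1.64 ± 0.27 log2 (SE; edgeR adjusted p = 0.0487). Hypoxia raised it 1.71-fold in shCDK8 and 5.31-fold in shNT. The call was kept with 2 of 8 libraries left out in turn.

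HOXA4, a homeobox transcription factor gene, was the least abundant of the called genes. It had 3.62 and 3.70 CPM in shCDK8 hypoxia and 5.95 and 4.77 CPM in shCDK8 normoxia, against 3.80 and 3.70 CPM in shNT hypoxia and 1.23 and 1.39 CPM in shNT normoxia. The hypoxic levels of the 2 lines met, and the normoxic level was 4.07-fold higher in shCDK8, so the response difference of -2.06 ± 0.32 log2 (SE; edgeR adjusted p = 0.0296) came from the normoxic levels. HOXA4 rose 2.85-fold in shNT, and its change in shCDK8 was -0.55 ± 0.21 log2 (adjusted p = 0.0724). The call was kept with 1 of 8 libraries left out in turn. The gene lies at chr7:27168126-27170399 (GRCh37, reverse strand).

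TFRC encodes the transferrin receptor, which brings iron into the cell, and its mRNA is known to be stabilised when iron is short. It was counted at 311 and 244 CPM in shCDK8 hypoxia and 224 and 191 CPM in shCDK8 normoxia, against 153 and 118 CPM in shNT hypoxia and 360 and 332 CPM in shNT normoxia. The order of the lines turned with oxygen, shCDK8 being 2.05-fold higher in hypoxia and shNT 1.67-fold higher in normoxia, with no overlap in either. TFRC fell in shNT by 1.35 log2 (adjusted p = 8.10e-06) and changed by 0.42 ± 0.16 log2 in shCDK8 (adjusted p = 0.0614). The difference was 1.77 ± 0.22 log2 (SE; 95% interval 1.30 to 2.24; edgeR adjusted p = 0.00467), and it was called with 7 of 8 libraries left out in turn. The gene lies at chr3:195739382-195809024 (GRCh37, reverse strand).

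**Figure D1:**
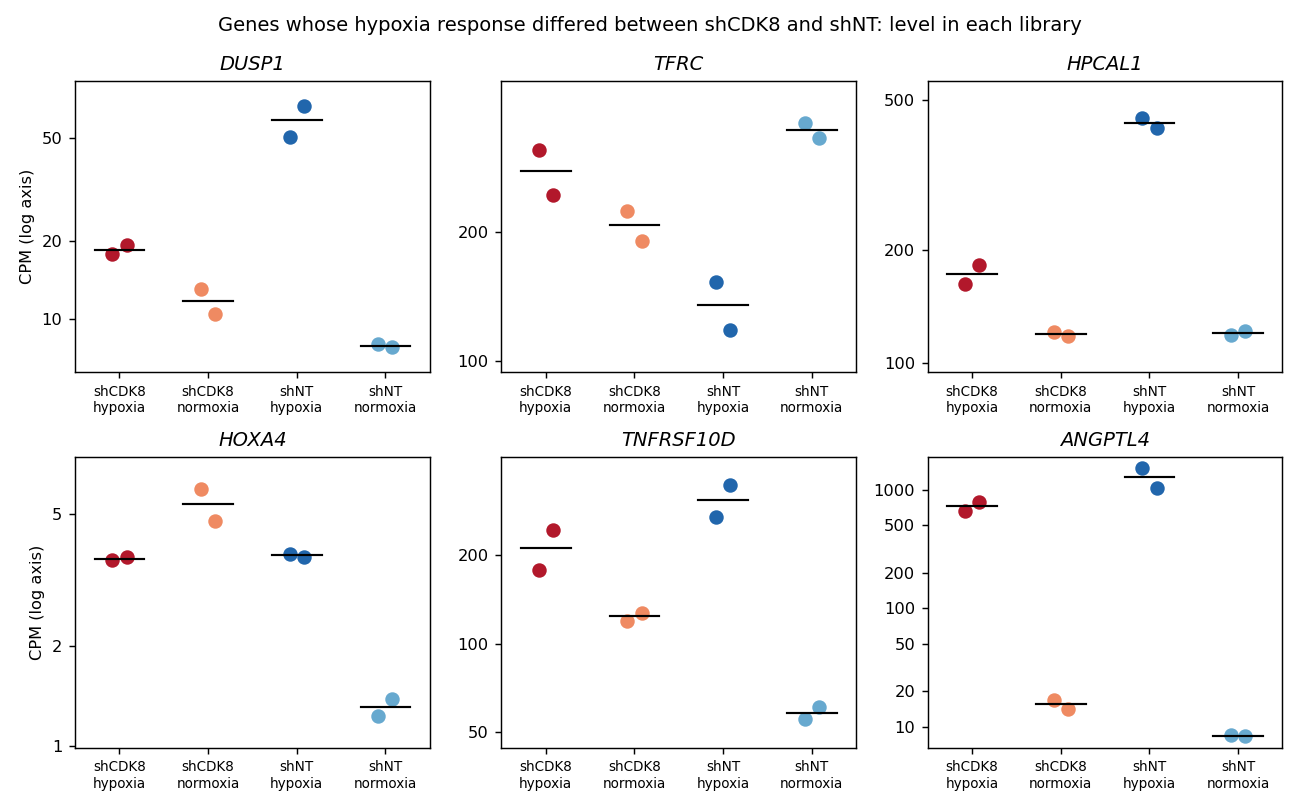
CPM on a log axis of the 6 genes whose hypoxia response differed between shCDK8 and shNT cells, with 1 point per library and a bar at the mean of each group of 2. HPCAL1 differs in hypoxia and HOXA4 in normoxia, and the order of the lines turns between oxygen levels for DUSP1, TFRC, TNFRSF10D and ANGPTL4.

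The other lines of the series give the responses of these genes without the CDK8 hairpin. DUSP1 changed by 3.30 log2 in cells with an shRNA against TIP60 and by 2.43 log2 in HIF1A-deleted cells. Both lay above the 0.66 log2 of shCDK8, and shNT had 2.88 log2. HPCAL1 changed by 1.52 log2 in the TIP60 line and 0.79 in HIF1A-deleted cells, against 0.53 in shCDK8 and 1.85 in shNT. TNFRSF10D changed by 1.81 and 1.55 log2 there, against 0.77 in shCDK8 and 2.41 in shNT. For HPCAL1 and TNFRSF10D, and for ANGPTL4 and HOXA4 as given below, the TIP60 line and HIF1A-deleted cells also had lower values than shNT. ANGPTL4 rose by 6.28 log2 in the TIP60 line and by 3.82 log2 in HIF1A-deleted cells, so the shCDK8 response of 5.53 log2 lay between these values. In shNT it rose by 7.23 log2. TFRC changed by -0.22 log2 in the TIP60 line and by -1.17 log2 in HIF1A-deleted cells, against 0.42 in shCDK8 and -1.35 in shNT. HOXA4 changed by 0.07 and -0.30 log2, near the -0.55 of shCDK8, so among the 4 lines the 1.51 log2 of shNT stood apart. These differences between lines were not tested.

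Promoter sequences are shown for DUSP1, the gene called under all alternatives, for ANGPTL4, the called gene of the hypoxia panel, and for TFRC, the gene with the higher response; each holds the HIF core motif within the window searched. The 250 bases before the annotated start come from RefSeq (GRCh38.p14) and are written 5′ to 3′ on the gene's strand, at chr5:172771196-172771445 (reverse strand) for DUSP1, chr19:8363905-8364154 (forward strand) for ANGPTL4 and chr3:196082091-196082340 (reverse strand) for TFRC. Capitals mark ACGTG or its reverse complement CACGT; where both overlap they form the palindrome CACGTG.
DUSP1: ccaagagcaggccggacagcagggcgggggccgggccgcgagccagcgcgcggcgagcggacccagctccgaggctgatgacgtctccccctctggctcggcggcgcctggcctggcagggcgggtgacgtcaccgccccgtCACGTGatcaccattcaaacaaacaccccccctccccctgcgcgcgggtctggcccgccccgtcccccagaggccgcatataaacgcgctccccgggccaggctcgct
ANGPTL4: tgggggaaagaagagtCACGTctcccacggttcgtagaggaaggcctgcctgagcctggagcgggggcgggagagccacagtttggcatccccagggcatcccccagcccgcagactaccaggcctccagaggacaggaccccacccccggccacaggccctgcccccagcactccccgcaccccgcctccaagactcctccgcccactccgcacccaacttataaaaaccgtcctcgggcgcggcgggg
TFRC: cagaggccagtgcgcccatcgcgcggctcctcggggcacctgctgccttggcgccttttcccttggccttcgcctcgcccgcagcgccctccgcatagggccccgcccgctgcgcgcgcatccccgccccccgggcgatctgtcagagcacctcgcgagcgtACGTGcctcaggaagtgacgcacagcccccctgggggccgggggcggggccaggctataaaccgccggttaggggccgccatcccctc
The first base of the match lies 108 bases before the start in DUSP1, 88 in TFRC and, near the far end of the window, 234 in ANGPTL4. In HOXA4, not shown, it lies 200 bases before the start. All 5 called genes with an entry in the promoter table hold the motif on either strand before at least 1 annotated start. So do 7 of 10 genes of a 12-gene hypoxia panel with an entry and 28.3% of 10571 tested genes; counted by start, 18.5% of all 35116 starts in the table hold it. These matches are letters in a window and were not tested as binding sites.

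The hypoxia factors themselves did not pass the test for a response difference. HIF1A averaged 56.6 CPM in shCDK8 hypoxia and 112 in shCDK8 normoxia, against 65.9 in shNT hypoxia and 107 in shNT normoxia. Its mRNA fell with hypoxia by 0.98 log2 in shCDK8 and by 0.71 log2 in shNT, and the difference was -0.28 ± 0.21 (SE). EPAS1 had 68.7 and 71.5 CPM in shCDK8 hypoxia and 36.2 and 29.2 CPM in shCDK8 normoxia, against 182 and 199 CPM in shNT hypoxia and 62.5 and 73.8 CPM in shNT normoxia. EPAS1 was thus lower in shCDK8 without overlap at each oxygen level, by 2.71-fold in hypoxia and 2.09-fold in normoxia (edgeR adjusted p = 1.37e-06 and 4.54e-05). It rose in both lines, by 1.10 and 1.48 log2, and its response difference was -0.38 ± 0.18 log2 (SE, 95% interval -0.77 to 0.01, edgeR adjusted p = 0.463). A level below that of shNT was not particular to shCDK8. EPAS1 averaged 92.2 CPM in hypoxia and 35.5 in normoxia in the TIP60 line, and 54.2 and 43.5 CPM in HIF1A-deleted cells. These lines were not tested against shNT. CITED2, which competes with HIF for its coactivator p300, averaged 49.5 CPM in shCDK8 hypoxia and 27.2 in shCDK8 normoxia, against 123 in shNT hypoxia and 46.7 in shNT normoxia (difference -0.53 ± 0.22, SE; adjusted p = 0.397). None of the 16 HIF pathway components tested passed in edgeR or in DESeq2, and 2 were lower at an unadjusted p under 0.05 (4.94% of all genes). The prolyl hydroxylase gene EGLN2 stayed under 1 CPM in all 8 libraries, and the antisense gene HIF1A-AS2, whose reads cannot be told from those of HIF1A where strand was not used, had no count in shNT normoxia.

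The hypoxia panel of 12 well-known HIF targets rose as a whole in both lines: 12 of 12 in shCDK8 (13.8% of all genes rose there) and 12 of 12 in shNT (20.7%). The median rise was 3.10 log2 in shCDK8 and 3.40 log2 in shNT, and the median response difference of -0.24 log2 stands beside 0.02 over all genes tested. Of the 12, ANGPTL4 passed the test (0.0322% of all genes passed on the lower side) and 10 had a difference below 0. For 4 the library responses of shCDK8 lay wholly below those of shNT (11.1% of all genes). At an unadjusted p under 0.05, 3 were lower (4.94%) and none higher (5.98%), and DESeq2 called 2, both lower (0.968%). In hypoxia 7 of 12 were lower in shCDK8 than in shNT (13.4% of all genes) and none was higher (14.4%). In normoxia 3 were lower (7.27%) and 2 were higher (5.8%).

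ANKRD37, an ankyrin repeat protein gene, had 46.3 and 76.3 CPM in shCDK8 hypoxia and 1.79 and 2.21 CPM in shCDK8 normoxia, against 181 and 278 CPM in shNT hypoxia and 3.26 and 2.08 CPM in shNT normoxia. The lines overlapped in normoxia and not in hypoxia, where shNT was 3.75-fold higher. Its rise was 30.4-fold in shCDK8 and 86.9-fold in shNT, with a response difference of -1.51 ± 0.40 log2 (SE; 95% interval -2.36 to -0.67; edgeR adjusted p = 0.162). KDM3A, a histone H3K9 demethylase gene, had 220 and 269 CPM in shCDK8 hypoxia and 37 and 42.5 CPM in shCDK8 normoxia, against 285 and 384 CPM in shNT hypoxia and 33.4 and 34.2 CPM in shNT normoxia (difference -0.68 ± 0.25 log2; adjusted p = 0.322). BNIP3, a mitophagy receptor gene, averaged 160 CPM in shCDK8 hypoxia and 25.1 in shCDK8 normoxia, against 241 in shNT hypoxia and 27.9 in shNT normoxia (difference -0.44 ± 0.23 log2). P4HA1, a collagen prolyl hydroxylase gene, averaged 155 CPM in shCDK8 hypoxia and 18.7 in shCDK8 normoxia, against 332 in shNT hypoxia and 29.2 in shNT normoxia. Its lower level at both oxygen levels left a difference of -0.46 ± 0.24 log2.

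CA9, which encodes the cell-surface carbonic anhydrase IX, showed the widest gap between lines within the panel at each oxygen level. It was counted at 6.38 and 7.34 CPM in shCDK8 hypoxia and 0.0717 and 0.177 CPM in shCDK8 normoxia, against 56.0 and 44.2 CPM in shNT hypoxia and 2.19 and 1.00 CPM in shNT normoxia. Its level in shNT was 7.30-fold that of shCDK8 in hypoxia (adjusted p = 5.55e-07) and 11.8-fold in normoxia (adjusted p = 0.000108). The fitted rise was 51.7-fold in shCDK8 and 32.1-fold in shNT, and the response difference was 0.69 ± 0.60 log2 (SE; 95% interval -0.58 to 1.96; edgeR adjusted p = 0.704), resting on 2 and 6 counts in the normoxic shCDK8 libraries. On the CPM scale CA9 rose by 6.73 in shCDK8 and by 48.5 in shNT.

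The remaining panel genes had differences within 0.30 log2 of 0 and intervals that included it. VEGFA, the endothelial growth factor gene, averaged 245 CPM in shCDK8 hypoxia and 60.4 in shCDK8 normoxia, against 286 in shNT hypoxia and 68.9 in shNT normoxia (95% interval of the difference -0.47 to 0.39). PDK1, whose product keeps pyruvate out of the mitochondrial cycle, had an interval of -0.64 to 0.48, LDHA, a lactate dehydrogenase gene, one of -0.63 to 0.26, and ADM, the adrenomedullin gene, one of -0.33 to 0.71. NDRG1 had an interval of -0.89 to 0.52. SLC2A1, the glucose transporter gene GLUT1, was the panel gene with a larger CPM rise in shCDK8, 958 against 776 CPM, and an interval of -0.81 to 0.21. The other 11 had the smaller CPM rise in shCDK8.

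**Figure D2:**
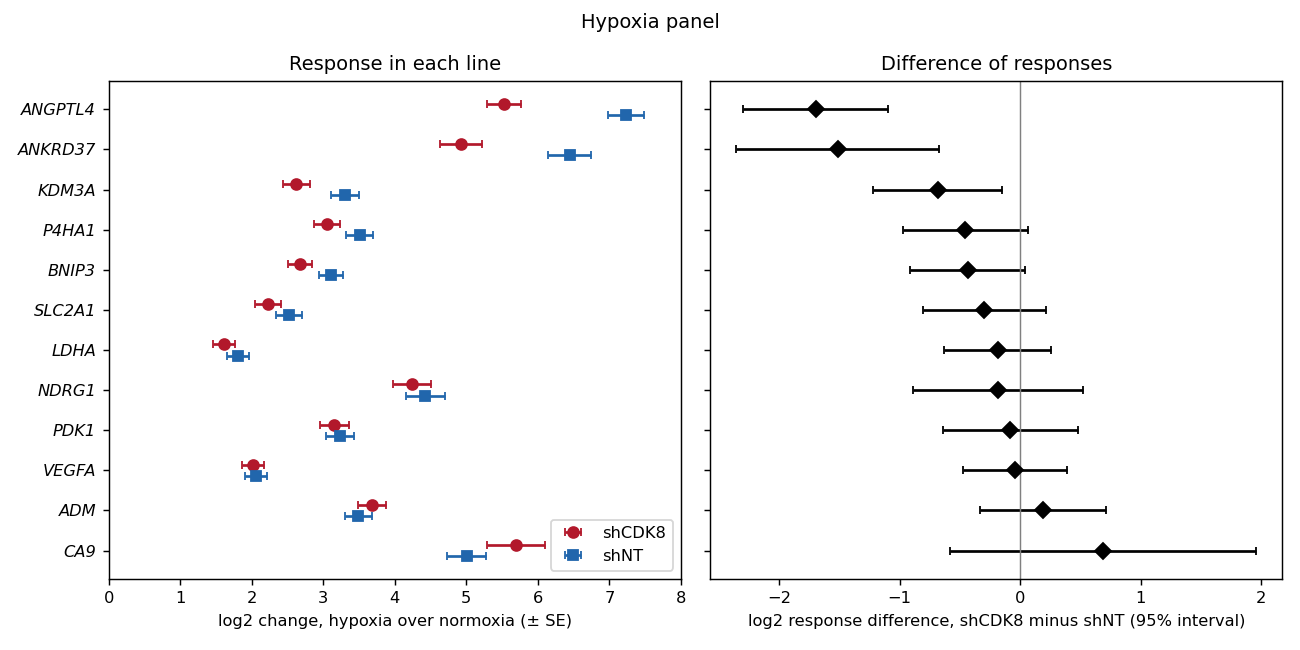
Hypoxia response (log2 of hypoxia over normoxia) of the 12 panel genes in shCDK8 and shNT cells, with bars of 1 SE, and their response difference with 95% intervals. All 12 rise in both lines, with differences from -1.70 (ANGPTL4) to 0.69 (CA9).

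Canonical HIF targets of other functions, 45 tested with ANKRD37, BNIP3 and NDRG1 shared with the panel, rose in both lines: 42 in shCDK8 (13.8% of all genes rose there) with a median of 1.95 log2 and 44 in shNT (20.7%) with a median of 2.63 log2. None passed the test for the difference, whose median was -0.41 log2, with 37 of 45 below 0 and 20 with library responses apart in that direction (11.1% of all genes). An unadjusted p under 0.05 was reached by 15 lower (4.94% of all genes) and 2 higher (5.98%), and DESeq2 called 8 (0.968%), all lower in shCDK8. In hypoxia 23 of 45 were lower in shCDK8 (13.4% of all genes) and 2 higher (14.4%). ARRDC3, an arrestin-domain adaptor gene, had 86.0 and 112 CPM in shCDK8 hypoxia and 18.8 and 16.3 CPM in shCDK8 normoxia, against 186 and 287 CPM in shNT hypoxia and 15.4 and 13.9 CPM in shNT normoxia. Its difference was -1.52 ± 0.32 log2 (SE; edgeR adjusted p = 0.0958), and that of RIMKLA, an N-acetylaspartylglutamate synthetase gene, was -1.16 ± 0.24 log2 (edgeR adjusted p = 0.0853). AK4, a mitochondrial adenylate kinase gene, averaged 118 CPM in shCDK8 hypoxia and 63.9 in shCDK8 normoxia, against 117 in shNT hypoxia and 38.8 in shNT normoxia; its hypoxic levels met and its normoxic level was higher in shCDK8 (difference -0.71 ± 0.17; adjusted p = 0.121). LIMCH1 had a difference of -0.93 ± 0.22 log2 (adjusted p = 0.120).

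Of 27 genes of glycolysis, glucose uptake and lactate export, 24 rose in each line (13.8% of all genes in shCDK8 and 20.7% in shNT). In each line 1 fell (11% and 20% of all genes). None passed edgeR's test for the difference, and the median was -0.14 log2. At an unadjusted p under 0.05, 4 were lower (4.94% of all genes), and DESeq2 called 1, lower (0.968%). SLC2A3, the glucose transporter gene GLUT3, had 46.1 and 77.1 CPM in shCDK8 hypoxia and 3.37 and 3.56 CPM in shCDK8 normoxia, against 241 and 266 CPM in shNT hypoxia and 6.04 and 6.30 CPM in shNT normoxia. It was lower in shCDK8 without overlap throughout, by 4.11-fold in hypoxia, and rose 17.7-fold in shCDK8 and 41.0-fold in shNT (difference -1.21 ± 0.33 log2; edgeR adjusted p = 0.182). PGK1 averaged 2342 CPM in shCDK8 hypoxia and 653 in shCDK8 normoxia, against 3495 in shNT hypoxia and 623 in shNT normoxia (-0.65 ± 0.22 log2). GPI and GAPDH, enzymes of the same pathway, had differences of -0.60 ± 0.23 and -0.53 ± 0.20 log2. PGK1, GAPDH and GPI have adjusted p-values of 0.277, 0.326 and 0.359 by edgeR.

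Among 15 angiogenic and vasoactive factors, ANGPTL4 passed (0.0322% of all genes passed on the lower side) and the median difference was -0.08 log2. At an unadjusted p under 0.05, 3 were lower (4.94% of all genes) and none higher (5.98%), and DESeq2 called 2, both lower (0.968%). PDGFA, a platelet-derived growth factor gene, had 75.9 and 138 CPM in shCDK8 hypoxia and 21.3 and 21.2 CPM in shCDK8 normoxia, against 291 and 423 CPM in shNT hypoxia and 22.7 and 23.5 CPM in shNT normoxia. The lines were close in normoxia and 3.33-fold apart in hypoxia, and the rise was 5.04-fold in shCDK8 and 15.4-fold in shNT (difference -1.61 ± 0.30 log2; edgeR adjusted p = 0.0714). PDGFB had a difference of -0.80 ± 0.25 log2 (edgeR adjusted p = 0.241). ANGPT2, with group means of 0.406 to 1.74 CPM, had a difference of 1.24 ± 0.67 log2.

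The list whose median lay furthest from that of all genes was DNA replication and E2F targets, which encode the helicase, polymerases, clamp and G1/S cyclins of S phase. With hypoxia 20 of 46 fell in shCDK8 (11% of all genes fell there) and 38 of 46 in shNT (20%), with median responses of -0.56 log2 in shCDK8 and -1.37 log2 in shNT. None passed the test for the difference, yet all 46 had a difference above 0, with a median of 0.79 log2 and a range of 0.20 to 1.71. The slope through 0 of shCDK8 on shNT responses was 0.41 for this list and 0.52 over all genes. A slope below 1 was thus not particular to this list. Error in the shNT responses also lowers such a slope, and its part was not tested. For 39 of 46 the library responses of shCDK8 lay wholly above those of shNT (13.6% of all genes), and 34 had an unadjusted p under 0.05 (5.98%). DESeq2 called 10 (0.788%), all higher. Across library responses, which share libraries, the list's median was -0.61 to -0.45 log2 in shCDK8 and -1.62 to -1.14 log2 in shNT, without overlap. Leaving out any 1 library kept the median difference between 0.66 and 0.86. The levels separated in hypoxia, where 27 were higher in shCDK8 (14.4% of all genes) and none lower (13.4%), while in normoxia none was higher (5.8%) and 1 lower (7.27%).

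CCNE2, a cyclin E gene, had 17.3 and 13.3 CPM in shCDK8 hypoxia and 32.0 and 39.1 CPM in shCDK8 normoxia, against 4.17 and 2.68 CPM in shNT hypoxia and 22.1 and 25 CPM in shNT normoxia. It fell in both lines, and shCDK8 stood 4.47-fold above shNT in hypoxia (difference 1.57 ± 0.31 log2, SE; edgeR adjusted p = 0.0824). CCNE1, the other cyclin E gene, had 34.4 and 34.5 CPM in shCDK8 hypoxia and 56.2 and 49.7 CPM in shCDK8 normoxia, against 14.3 and 10.9 CPM in shNT hypoxia and 46.5 and 50.8 CPM in shNT normoxia. The lines overlapped in normoxia and were 2.73-fold apart in hypoxia (difference 1.33 ± 0.24 log2; edgeR adjusted p = 0.0700). CLSPN, the replication checkpoint adaptor claspin, had the largest difference of the list, 1.71 ± 0.38 log2 (edgeR adjusted p = 0.111), with 26.1 CPM on average in shCDK8 hypoxia and 55.0 in shCDK8 normoxia, against 8.21 in shNT hypoxia and 56.6 in shNT normoxia. MCM6, a subunit of the replicative helicase, averaged 108 CPM in shCDK8 hypoxia and 187 in shCDK8 normoxia, against 77.1 in shNT hypoxia and 247 in shNT normoxia (difference 0.89 ± 0.22 log2; edgeR adjusted p = 0.149). Of 34 mitosis genes, 1 fell in shCDK8 (11% of all genes) and 8 in shNT (20%, a share close to that of the list), none passed for the difference in edgeR or DESeq2 or had an unadjusted p under 0.05, 28 lay above 0 and the median was 0.24 log2. The share of cells in each phase of the cycle was not measured here.

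**Figure D3:**
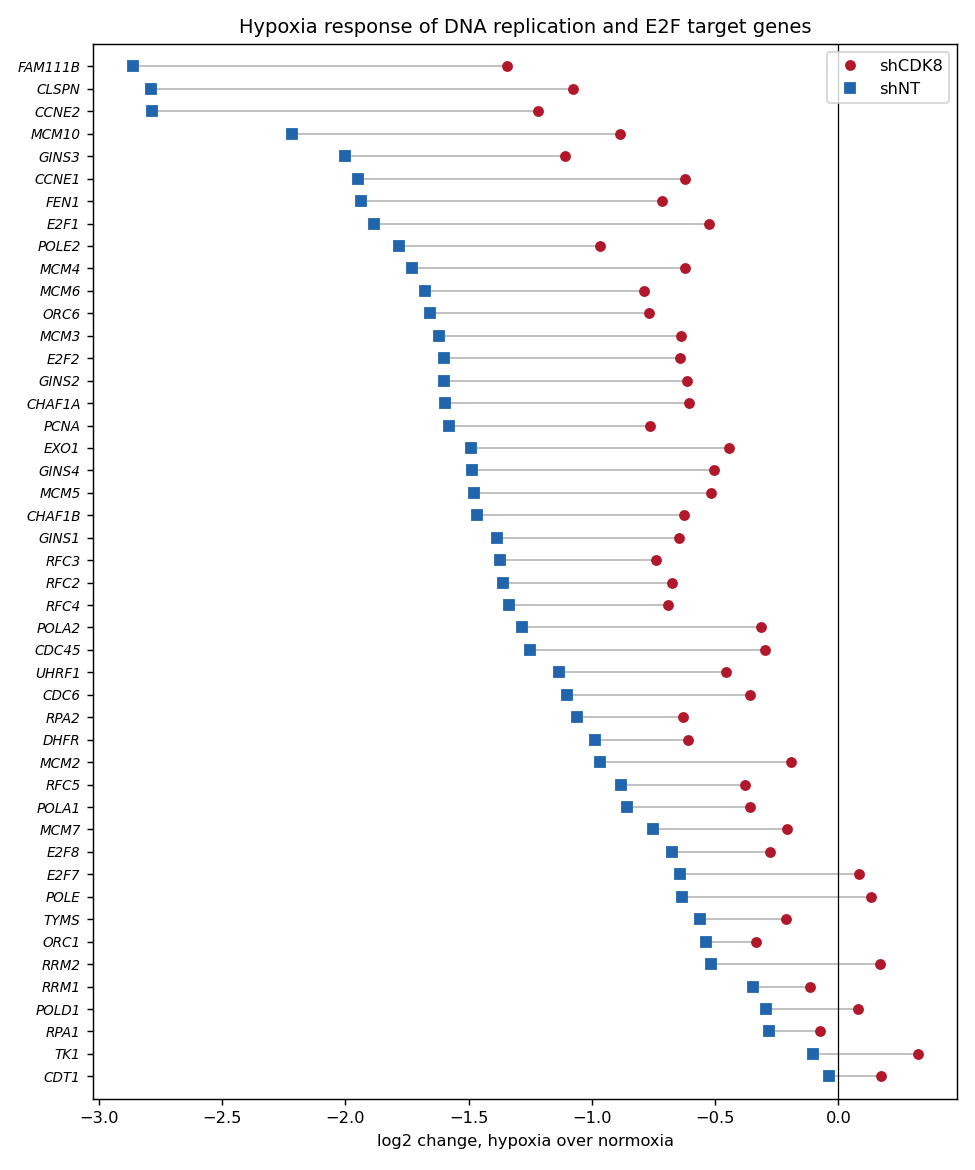
Hypoxia response (log2 of hypoxia over normoxia) of the 46 DNA replication and E2F target genes in shCDK8 (circles) and shNT cells (squares), ordered by the shNT response. Every circle lies to the right of its square.

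Cytoplasmic ribosomal protein genes had the opposite lean. None of the 40 rose in shCDK8 (13.8% of all genes) and 17 rose in shNT (20.7%), with median responses of -0.03 log2 in shCDK8 and 0.33 log2 in shNT. No member passed the test for the difference, all 40 were below 0 and the median was -0.32 log2. On the lower side, 7 had library responses apart (11.1% of all genes) and 7 an unadjusted p under 0.05 (4.94%). DESeq2 called 0. Across library responses the medians overlapped, at -0.29 to 0.29 log2 in shCDK8 and 0.22 to 0.40 log2 in shNT. RPS2 averaged 2573 CPM in shCDK8 hypoxia and 2358 in shCDK8 normoxia, against 2870 in shNT hypoxia and 1758 in shNT normoxia (difference -0.58 ± 0.20 log2; edgeR adjusted p = 0.288). Many ribosomal protein genes have near-identical pseudogenes that could take part of their reads. Ribosome biogenesis factors, 31 tested, fell in both lines, 20 in shCDK8 (11% of all genes) and 24 in shNT (20%), with a median difference of 0.24 log2 and none called by edgeR or DESeq2. At an unadjusted p under 0.05, 5 were higher (5.98% of all genes). NIP7, which acts in rRNA processing, had the smallest adjusted p of that list (0.52 ± 0.17 log2; edgeR adjusted p = 0.275).

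Cytosolic heat shock chaperones, 21 tested, fell in both lines, 12 in shCDK8 (11% of all genes) and 14 in shNT (20%), and none rose in either. The median difference was 0.47 log2, 16 of 21 lay above 0 and none was called by edgeR. At an unadjusted p under 0.05, 8 were higher (5.98% of all genes), and DESeq2 called 1, higher (0.788%). HSPH1, an Hsp110 chaperone gene, had 104 and 99.0 CPM in shCDK8 hypoxia and 160 and 204 CPM in shCDK8 normoxia, against 45.5 and 49.4 CPM in shNT hypoxia and 193 and 199 CPM in shNT normoxia, overlapping in normoxia and not in hypoxia (1.2 ± 0.31 log2; edgeR adjusted p = 0.162). Cholesterol and fatty acid synthesis genes, 33 tested, had a median difference of 0.33 log2 with 26 above 0 and none called by edgeR (7 higher at an unadjusted p under 0.05, 5.98% of all genes, and 2 higher in DESeq2, 0.788%). In normoxia 15 of these were lower in shCDK8 (7.27% of all genes) and none was higher (5.8%), and in hypoxia 10 were lower (13.4%).

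Among 38 immediate early and serum response genes, 28 rose in shCDK8 (13.8% of all genes) and 31 in shNT (20.7%), and 1 fell in each (11% and 20%). DUSP1 passed the test for the difference (0.0322% of all genes passed on the lower side), and the median was -0.11 log2. At an unadjusted p under 0.05, 12 were lower (4.94% of all genes) and 1 higher (5.98%). DESeq2 called 5, all lower (0.968%). NR4A2, an orphan nuclear receptor gene, had 15.3 and 18.0 CPM in shCDK8 hypoxia and 12 and 10.6 CPM in shCDK8 normoxia, against 39.6 and 61.4 CPM in shNT hypoxia and 11.3 and 14 CPM in shNT normoxia. As for DUSP1, the 2 hypoxic shNT libraries stood above the other 6 (-1.44 ± 0.38 log2; edgeR adjusted p = 0.169). FOSL2, an AP-1 subunit gene, rose in both lines, with 242 CPM in shCDK8 hypoxia and 47.5 in shCDK8 normoxia, against 276 in shNT hypoxia and 30.1 in shNT normoxia (-0.85 ± 0.20 log2; edgeR adjusted p = 0.120). ATF3 had -1.05 ± 0.27 log2 (edgeR adjusted p = 0.162) and was higher in shCDK8 in normoxia.

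Of 28 p53 targets, 7 rose in shCDK8 (13.8% of all genes) and 15 in shNT (20.7%). TNFRSF10D passed the test for the difference (0.0322% of all genes passed on the lower side), 22 were below 0 and the median was -0.29 log2. At an unadjusted p under 0.05, 8 were lower (4.94% of all genes) and 2 higher (5.98%). DESeq2 called 4 lower (0.968%) and 1 higher (0.788%). In normoxia 20 of the 28 were higher in shCDK8 (5.8% of all genes) and 1 lower (7.27%), and in hypoxia 11 were higher (14.4%) and 2 lower (13.4%). GDF15, a stress cytokine gene, averaged 476 CPM in shCDK8 hypoxia and 186 in shCDK8 normoxia, against 428 in shNT hypoxia and 90.8 in shNT normoxia, so the lines differed in normoxia (-0.88 ± 0.18 log2; edgeR adjusted p = 0.0923). GADD45A followed the same order, with means of 94.0 and 79.1 CPM in shCDK8 hypoxia and normoxia, against 95.8 and 50.1 CPM in shNT (-0.69 ± 0.18 log2; edgeR adjusted p = 0.162). C12orf5, the older symbol of TIGAR, went the other way (1.27 ± 0.27 log2; edgeR adjusted p = 0.0958): it fell in both lines, with means of 13.6 CPM in shCDK8 hypoxia and 30.7 in shCDK8 normoxia, against 2.76 in shNT hypoxia and 15 in shNT normoxia.

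Of 10 iron handling genes, TFRC passed (0.00644% of all genes passed on the higher side), and the median difference was 0.11 log2. At an unadjusted p under 0.05, 1 was lower (4.94% of all genes) and 2 were higher (5.98%). DESeq2 called 1 lower (0.968%) and 1 higher (0.788%). STEAP3, which reduces the iron that TFRC brings in, averaged 88.4 CPM in shCDK8 hypoxia and 98.1 in shCDK8 normoxia, against 153 in shNT hypoxia and 97.4 in shNT normoxia (-0.80 ± 0.18 log2; edgeR adjusted p = 0.111). HMOX1, the heme oxygenase gene that releases iron from heme, averaged 55.2 CPM in shCDK8 hypoxia and 37.4 in shCDK8 normoxia, against 17.6 in shNT hypoxia and 18.9 in shNT normoxia (0.67 ± 0.20 log2; edgeR adjusted p = 0.233). SLC40A1, the iron exporter ferroportin, averaged 2.03 CPM in shCDK8 hypoxia and 3.12 in shCDK8 normoxia, against 0.357 in shNT hypoxia and 0.255 in shNT normoxia.

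YAP targets, 22 tested, and TGF-beta and SMAD targets, 23 tested, leaned below 0 with no member called: the medians were -0.37 and -0.33 log2, with 19 of 22 and 17 of 23 below 0. Of the YAP targets 8 had an unadjusted p under 0.05, all lower (4.94% of all genes), and DESeq2 called 3, all lower (0.968%). Of the TGF-beta and SMAD targets 7 were lower (4.94%) and 1 higher (5.98%) at an unadjusted p under 0.05. DESeq2 called 2 of these targets, both lower (0.968%). CRIM1, a YAP target, averaged 66.1 CPM in shCDK8 hypoxia and 43.5 in shCDK8 normoxia, against 122 in shNT hypoxia and 46.1 in shNT normoxia (-0.80 ± 0.20 log2; edgeR adjusted p = 0.159). SMAD3, the TGF-beta signal transducer, averaged 387 CPM in shCDK8 hypoxia and 254 in shCDK8 normoxia, against 282 in shNT hypoxia and 102 in shNT normoxia (-0.86 ± 0.20 log2; edgeR adjusted p = 0.117). ID3, an inhibitor of DNA-binding transcription factors, fell in both lines and had a difference of 0.98 ± 0.28 log2 (edgeR adjusted p = 0.208). Wnt and beta-catenin targets, a pathway in which CDK8 is a known colon cancer coactivator, had a median of 0.17 log2 with 14 of 19 above 0 and none called by edgeR. An unadjusted p under 0.05 was reached by 1 lower (4.94% of all genes) and 2 higher (5.98%), and DESeq2 called 1, higher (0.788%). AXIN2, the feedback inhibitor of that pathway, had 39.6 and 36.5 CPM in shCDK8 hypoxia and 47.1 and 46.5 CPM in shCDK8 normoxia, against 6.66 and 9.03 CPM in shNT hypoxia and 17.6 and 21.3 CPM in shNT normoxia. It was higher in shCDK8 without overlap, by 4.85-fold in hypoxia and 2.41-fold in normoxia, with a difference of 1.01 ± 0.24 log2 (edgeR adjusted p = 0.120).

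**Figure D4:**
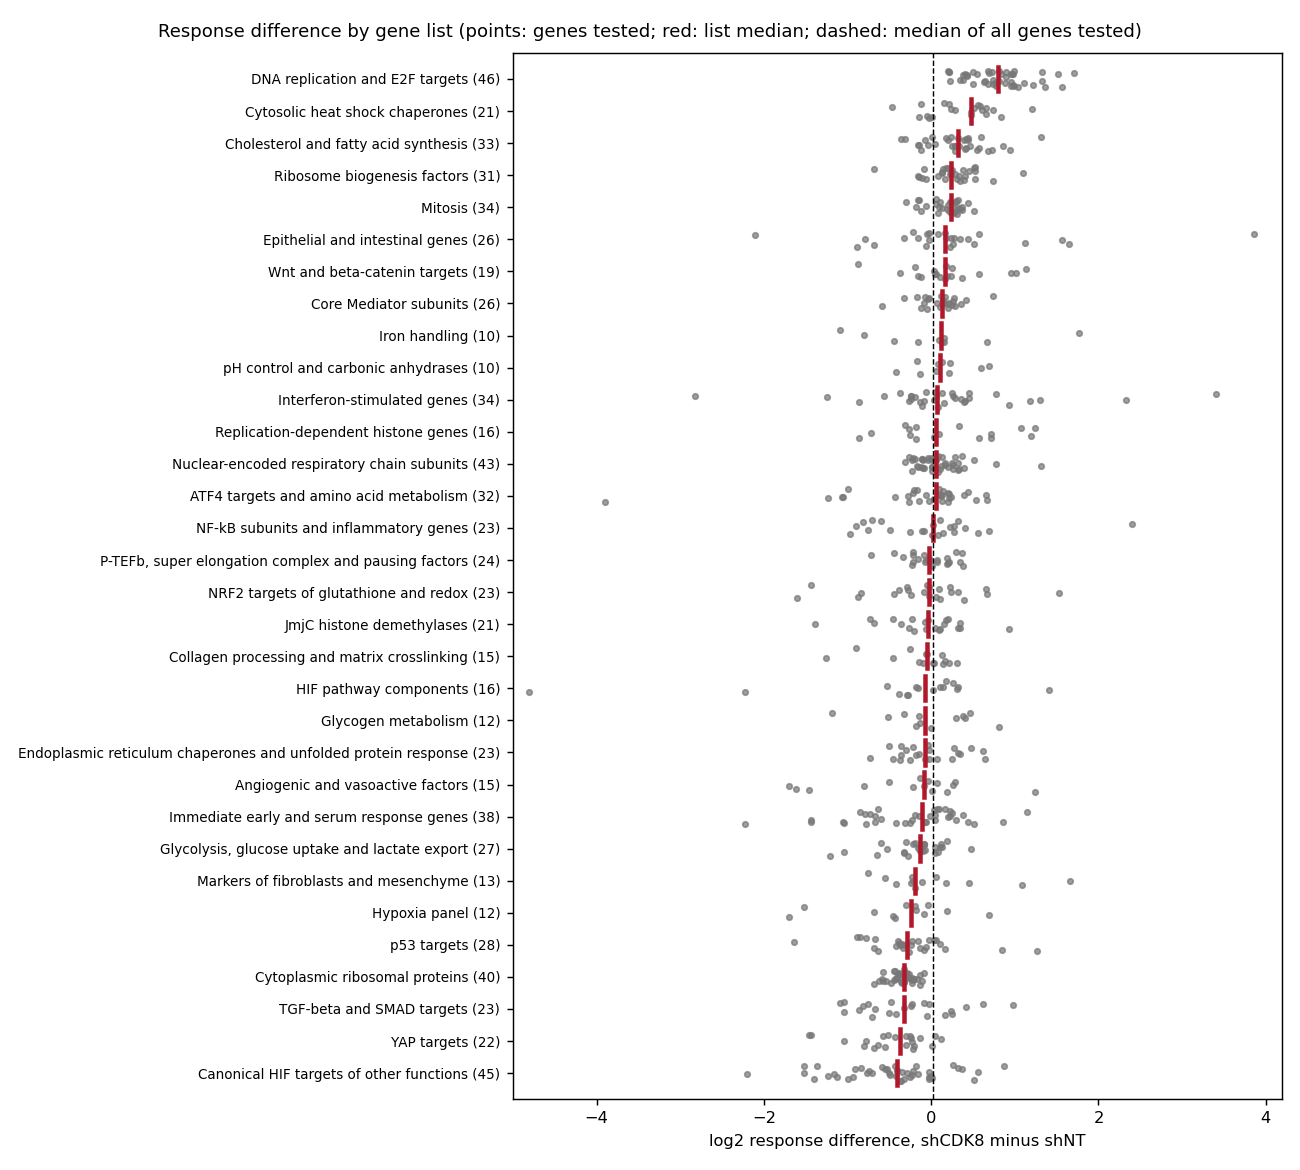
Response difference (log2, shCDK8 minus shNT) of each tested gene in the 32 lists with at least 10 genes tested, ordered by list median (red bar), beside the median of all genes (dashed line). DNA replication and E2F targets lie furthest above 0 and canonical HIF targets furthest below.

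None of the 7 genes of the Mediator kinase module or of the 26 core Mediator subunits passed in edgeR or DESeq2, with medians of -0.26 and 0.13 log2. At an unadjusted p under 0.05, 1 core subunit was lower (4.94% of all genes) and 2 were higher (5.98%). CCNC, the cyclin partner of CDK8, averaged 79.0 CPM in shCDK8 hypoxia and 98.4 in shCDK8 normoxia, against 81.9 in shNT hypoxia and 82.9 in shNT normoxia. MED13L, a module subunit, had a difference of -0.32 ± 0.21 log2 (edgeR adjusted p = 0.600). P-TEFb, super elongation complex and pausing factors, 24 tested, had a median of -0.02 log2 and no member called by edgeR or DESeq2 (1 lower at an unadjusted p under 0.05, 4.94% of all genes). AFF4, the scaffold of the super elongation complex, had 22.6 and 29.2 CPM in shCDK8 hypoxia and 16.5 and 17.7 CPM in shCDK8 normoxia, against 119 and 151 CPM in shNT hypoxia and 62.9 and 68.4 CPM in shNT normoxia. Its level in shNT was 5.22-fold that of shCDK8 in hypoxia and 3.84-fold in normoxia, without overlap (edgeR adjusted p = 6.12e-07 and 7.83e-06), a gap of about the size of that of CDK8 itself. Its response difference was -0.44 ± 0.27 log2 (SE; 95% interval -1.02 to 0.14; edgeR adjusted p = 0.570). The other lists held no gene called by edgeR and 0 to 6 at an unadjusted p under 0.05 (10.9% of all genes, either direction). DESeq2 called 3 of 32 ATF4 targets, 2 of 15 collagen processing and 2 of 26 epithelial genes, all lower (0.968% of all genes). It also called 1 glycogen gene and 1 NRF2 target lower and 1 respiratory chain gene higher (0.788%). The medians of these other lists lay between -0.20 log2 (fibroblast and mesenchymal markers) and 0.17 log2 (epithelial and intestinal genes).

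Over all 15520 genes the response of shCDK8 followed that of shNT with a slope through 0 of 0.52 and r = 0.65 across genes, which are not independent replicates; the 2 responses share no library. The slope was 0.88 for the hypoxia panel, 0.80 for the canonical HIF targets, 0.41 for the DNA replication genes and 0.12 for the ribosomal protein genes. Of all 15520 genes, 10012 had the smaller log2 change in shCDK8. Both HIF lists had slopes above that of all genes, although their median differences lay below 0. Part of the scatter is error, since the median SE of a response difference was 0.26 log2 and the central 95% of all differences ran from -1.33 to 1.19 log2.

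**Figure D5:**
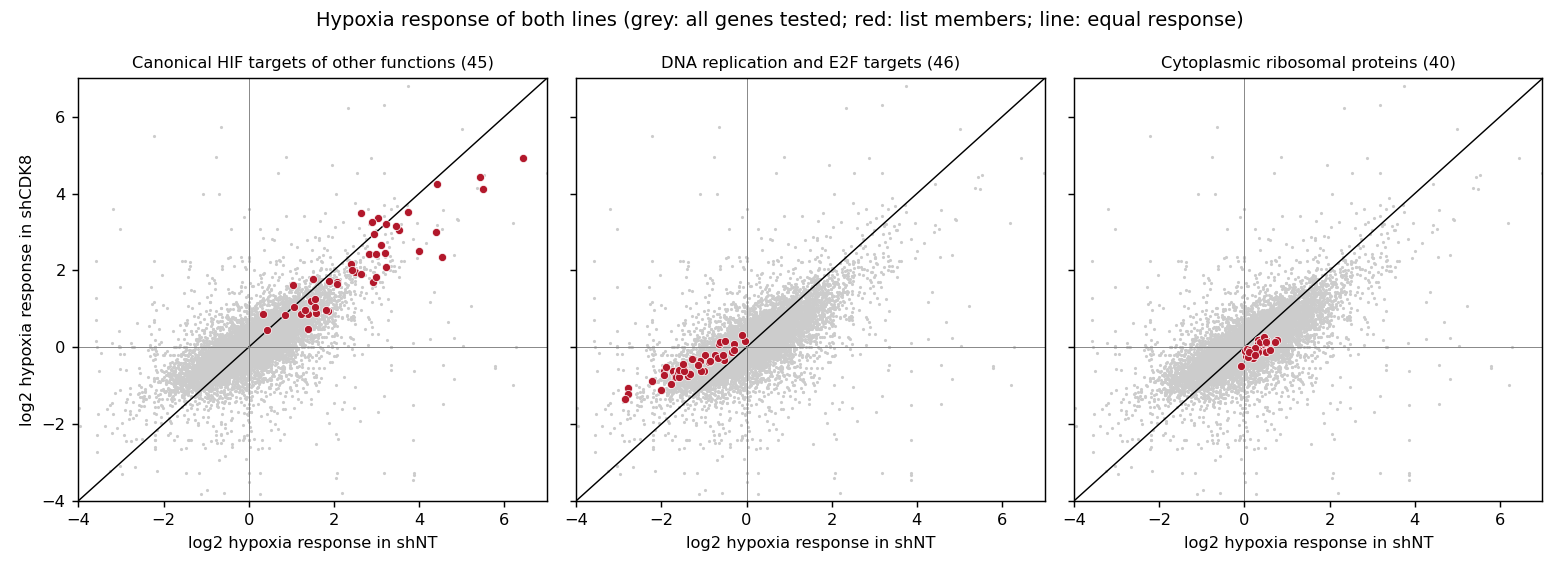
Hypoxia response in shCDK8 against that in shNT (log2 of hypoxia over normoxia), 1 grey point per gene tested, with the members of 1 list in red in each panel and the line of equal response. Of 45 canonical HIF targets 37 lie below the line, all 46 DNA replication genes lie above it and all 40 ribosomal protein genes lie below it; 37 of all genes fall outside the axes.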

How the data were processed

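PolyA RNA of 16 HCT116 libraries was sequenced on an Ion Torrent Proton, per the labels' protocols. The authors deposited raw counts per gene; the submitters' processing notes name GSNAP 2013-10-28, HTSeq 0.5.4p5, DESeq 1.14.0 and builds hg19 and GRCh37, and the annotation, strand setting and read filters are not given in the sources used here. Column headers give the group and a library number, not the labels' replicate number, so libraries were mapped to groups only. The library numbers form 2 consecutive runs, each with the 8 groups in the same order. What the runs stand for is not stated. The main fit therefore took no pairing, and the runs as a block were an alternative.

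Counts were fitted in edgeR 4.0.16 (R 4.3.3; filterByExpr, TMM, robust quasi-likelihood, all 16 libraries, 1 coefficient per group, 8 residual degrees of freedom); 15520 of 23669 genes were tested, with Benjamini-Hochberg adjustment at 0.05 over all of them. Single-gene intervals are 95% intervals from this fit. The named genes were CDK8, CDK19, HIF1A, EPAS1, the 12-gene panel, called genes reaching 5 CPM in a group with library responses apart, and up to 4 list members with the smallest adjusted p. In all, 34 gene lists (887 entries, 883 found in the table) were described by counts and medians. The members and lists were chosen with earlier results of these data known. Alternatives were other scalings, DESeq2 1.42.0, other low-count filters, the 8 libraries alone, a replicate block, a test against 1.5-fold and leaving out each library; a fit without robust weights was chosen after seeing the data. The procedure was tested on simulated data. Gene positions are GRCh37 (GENCODE lifted annotation).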

Additional observations from a re-analysis of the deposited data

Results flagged for a closer look

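The 6 genes below were marked because their hypoxia response differed between the shCDK8 and shNT lines by a test of the difference itself (edgeR's quasi-likelihood test, Benjamini-Hochberg adjusted). DUSP1 had a response difference of -2.23 log2, HPCAL1 of -1.33 log2, TNFRSF10D of -1.64 log2, ANGPTL4 of -1.70 log2 and HOXA4 of -2.06 log2, all lower in shCDK8, and TFRC had 1.77 log2, higher in shCDK8. For each of them all 4 differences between hypoxic and normoxic libraries of shCDK8 lay on one side of all 4 of shNT. Of all genes, 11.1% lay apart in this way on the lower side and 13.6% on the higher side. This comparison uses the same libraries as the test and was a condition for naming called genes, so it adds no separate support. With 2 libraries a group, no group was large enough for a search for single libraries that stand apart.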

How the results depend on the processing

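The number of called genes depended on the model. Against 5 lower and 1 higher, DESeq2 called 124 lower and 101 higher, edgeR without a low-count filter 152 lower and 232 higher, a minimum mean of 5 CPM 12 lower and 3 higher, library totals as the only scaling 5 lower and 3 higher, and a test against 1.5-fold 1 lower and 0 higher (DUSP1 was the gene that passed). The causes were not tested. With the replicate block, taking the 2 consecutive runs of library numbers as replicate series, 202 were lower and 330 higher. All 6 genes and 26 of the 46 DNA replication and E2F targets (all higher) were among them. The B minus A deviations of the 4 groups correlated positively in each pair of groups, at 0.031 to 0.215. Whether the runs were paired in the experiment is not stated. Leaving out 1 library gave 1 to 7 lower and 0 to 4 higher, the fewest without the first library of shCDK8 hypoxia (1 gene in all, DUSP1) and the most without the first of shNT hypoxia (9 in all). RLE scaling (6 lower, 1 higher), the fit without robust weights (6 and 1, chosen after seeing the data) and the 8 libraries alone (4 and 1) gave counts within 1.5 times. RLE scaling and the fit without robust weights kept all 6 called genes, and the fit on the 8 libraries alone kept 4 of the 6. All 6 genes kept their direction in every alternative that tested them; the filter at 5 CPM did not test HOXA4. TFRC was called in 15 of 17, HPCAL1 in 14, TNFRSF10D in 9, ANGPTL4 in 8 and HOXA4 in 7 of 16.

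Of 58 other named genes, 28 passed in DESeq2 and 31 with the block. Over all genes, DESeq2 called 0.968% lower and 0.788% higher, and the block 1.3% lower and 2.13% higher. Many of the 58 were named for a small p for this same difference, so the higher share among them follows in part from that choice. Direction changed for 4 panel genes with a library left out: VEGFA ranged from -0.12 to 0.0142 log2, ADM from -0.00477 to 0.37, NDRG1 from -0.52 to 0.0858 and PDK1 from -0.27 to 0.13. The median over all genes was 0.02 log2 with TMM, -0.003 with RLE and 0.06 with library totals. With 2 libraries a group, the median SE of a difference was 0.26 log2.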

Other observations

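At an adjusted p under 0.1, 36 genes were listed for the response difference, 20 lower and 16 higher in shCDK8. The genes named here were chosen from them after their values were seen, and none passed 0.05 in this fit. HLA-E, a non-classical MHC class I gene, had 203 and 194 CPM in shCDK8 hypoxia and 153 and 141 CPM in shCDK8 normoxia, against 561 and 549 CPM in shNT hypoxia and 209 and 200 CPM in shNT normoxia (-1.01 ± 0.17 log2, SE; edgeR adjusted p = 0.0570). The hypoxic shNT libraries were the highest by a wide margin. SLC6A6, the taurine transporter gene, averaged 171 CPM in shCDK8 hypoxia and 93.4 in shCDK8 normoxia, against 382 in shNT hypoxia and 97.3 in shNT normoxia (-1.10 ± 0.20 log2).

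On the higher side, DTL, a substrate receptor of the CUL4 ubiquitin ligase in S phase, averaged 39.2 CPM in shCDK8 hypoxia and 52.6 in shCDK8 normoxia, against 20.8 in shNT hypoxia and 62.6 in shNT normoxia (1.17 ± 0.23 log2; edgeR adjusted p = 0.0774). ESCO2, a cohesin acetyltransferase gene, had a difference of 1.22 ± 0.25 log2 and GEN1, a Holliday junction resolvase gene, one of 1.11 ± 0.23 log2. RDH10, a retinol dehydrogenase gene, averaged 13.2 CPM in shCDK8 hypoxia and 20.2 in shCDK8 normoxia, against 4.94 in shNT hypoxia and 17.0 in shNT normoxia (1.17 ± 0.20 log2; edgeR adjusted p = 0.0605).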
